A study of Mus musculus with 12 samples.

Results

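Secondary and tertiary granules are the storage vesicles that neutrophils add late in their development, after the primary granules have been filled. Secondary granules carry antimicrobial and iron-binding proteins, tertiary granules carry gelatinase, and both fuse with the cell surface when the neutrophil leaves the blood. Their contents are largely made while the cell matures in bone marrow, so a mature neutrophil can carry a granule protein while it holds little of the message. RNA of 10 genes of these granules was followed here: *Ltf*, *Camp*, *Ngp*, *Lcn2*, *Chi3l3* (now *Chil3*), *Cd177*, *Lyz2*, *Mmp8*, *Mmp9* and *Mmp25*. They were chosen by name from the 28987 genes of the deposited table, and all 10 were found. Lysozyme, encoded by *Lyz2*, is also stored in primary granules and made by macrophages, and *Chi3l3* is made by some macrophages too.

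The libraries came from wild-type (WT) mice and from MRP8-Bcl2 mice (written Bcl2) of strain fvb. In the transgenic mice human Bcl-2, an inhibitor of cell death, is driven by the human MRP8 regulatory regions, which are active in myeloid cells. All mice, whatever the genotype, were given 2 mL thioglycollate into the peritoneum, an irritant that draws neutrophils there, and cells were taken from the bone marrow (BM) and the peritoneum (PT) after 6 h by the labels and after 4 or 8 h by the methods, and then sorted. There were 3 libraries in each of 4 groups: BM WT (libraries 4, 5 and 6), PT WT (10, 11 and 12), BM Bcl2 (1, 2 and 3) and PT Bcl2 (7, 8 and 9). No age was given, no mouse was left untreated, and the methods say that both sites were sampled in every mouse, so BM and PT libraries can share mice, but the columns do not say which mouse a library came from.

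The labels name macrophages as the source, whereas the design text and the methods name neutrophils. The neutrophil genes *S100a8* and *S100a9* were at 4495 TPM or more in all 12 libraries, and the macrophage genes *Adgre1* and *C1qa* reached at most 18.5 and 2.45 TPM, though others of the 8 macrophage genes reached more, *Cd68* up to 574 TPM and *Csf1r* up to 96.7 TPM, both in library 7 (PT Bcl2). TPM gives the proportion of a library's transcripts that come from a gene, corrected for length, so levels of different genes can be set side by side, but it keeps no read totals and the depth is unknown. Library 9, labelled PT Bcl2, held 0.695 TPM of mouse *Bcl2*, within the 0.219 to 2.37 TPM of the WT libraries, against 58.6 to 333 TPM in the other 5 libraries labelled Bcl2. Library 12 (PT WT) stood apart in listing the neutrophil surface gene *Ly6g* at 0, and 4 mast cell genes summed to 633 TPM there and to at most 57.8 TPM elsewhere. Genes with a long run of A or T took 8.93 to 24.1% of all TPM in BM and 15.5 to 65.6% in PT, with over 50% in 4 of the 6 PT libraries, a share that lowers the TPM of every other gene in the library.

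*Camp*, *Ngp* and *Ltf*, which had the largest falls in WT peritoneum of the 10 genes, also lie near each other on chromosome 9 (GRCm38, GENCODE M21). *Camp* spans 109847379 to 109849617 on the minus strand, *Ngp* spans 110419747 to 110423012 and *Ltf* spans 111019271 to 111042767, both on the plus strand. *Camp* and *Ngp* are 570 kb apart, and *Ngp* and *Ltf* 596 kb. Of 14 other tested genes between *Camp* and *Ltf*, 1 was called lower in PT in WT and 3 in Bcl2 (1.22% and 19.1% of all tested genes were), with median log2 fold changes of -0.10 and -0.59. The bases just upstream of these 3 genes are shown because the genes moved together, and because C/EBP factors and PU.1 are known to act at granule genes. They are from RefSeq (GRCm38.p6), 5′ to 3′ on the strand of the gene, in the parts of the windows chr9:109849618-109849706 (*Camp*), chr9:110419558-110419746 (*Ngp*) and chr9:111019042-111019270 (*Ltf*) that lie before both the RefSeq and the GENCODE start. Capitals mark matches on either strand to TTGCNNAA, a C/EBP motif, and to GAGGAA, a PU.1 core.
Camp: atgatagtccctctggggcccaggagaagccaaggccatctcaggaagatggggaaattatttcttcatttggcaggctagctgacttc
Ngp: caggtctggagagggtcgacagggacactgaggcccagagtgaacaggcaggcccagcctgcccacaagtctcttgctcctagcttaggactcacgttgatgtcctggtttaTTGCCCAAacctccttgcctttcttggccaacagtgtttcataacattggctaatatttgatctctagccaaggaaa
Ltf: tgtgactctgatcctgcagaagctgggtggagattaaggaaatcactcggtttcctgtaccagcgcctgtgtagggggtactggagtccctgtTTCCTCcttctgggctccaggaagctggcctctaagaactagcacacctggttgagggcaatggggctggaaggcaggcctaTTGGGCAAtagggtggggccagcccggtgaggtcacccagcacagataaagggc
The search covered 300 bases a gene, from 250 before to 50 after the RefSeq start, for the 9 granule genes with an entry, all but *Mmp9*. TTGCNNAA was found in 4 of the 9 windows (*Ltf*, *Ngp*, *Lcn2* and *Mmp8*) and in 10.8% of all 32851 mouse windows. GAGGAA was found in 5 of 9 (*Ltf*, *Lcn2*, *Cd177*, *Mmp8* and *Mmp25*) and in 28.3% of all. Both were found in *Ltf*, *Lcn2* and *Mmp8*, and in 2.92% of all. *Ngp* held a second TTGCNNAA match beginning 11 bases before its RefSeq start, inside the GENCODE transcript. The window of *Camp* held neither set of letters. Its GENCODE start lies 161 bases upstream of the RefSeq start, so only 89 of the 300 bases searched lie before both starts. Bases further upstream of *Camp* were not searched. These matches are a description of the letters and not of binding.

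The first comparison asked how neutrophil RNA differed between the inflamed peritoneum and the bone marrow. In WT mice all 10 granule genes had lower estimates in PT, and 7 were called lower: *Camp*, *Ngp*, *Ltf*, *Chi3l3*, *Cd177*, *Lcn2* and *Lyz2*. The call needed 2 things in limma, an adjusted p below 0.05 by the method of Benjamini and Hochberg over all tested genes, and a 2-fold difference or more. Of all 13456 genes tested, 1.22% were called lower. In Bcl2 mice all 10 estimates were lower again and the same 7 genes were called, where 19.1% of all tested genes were called lower. Over the 10 genes the median of the log2 fold changes was -5.16 for WT and -3.60 for Bcl2, and the median over all tested genes was 0.22 in WT and -1.02 in Bcl2. Relative to these medians the changes ran from -7.68 (*Camp*) to -1.49 (*Mmp9*) in WT and from -5.86 (*Camp*) to 0.66 (*Mmp9*) in Bcl2. In Bcl2 311 genes were called higher beside the 2567 called lower, and once the median of every library was set equal 1636 were called higher and 467 lower, or 3.47% of those tested. In WT 214 were called higher and 164 lower, against 112 and 197 after centring and 485 and 109 without genes with a long run of A or T. The groups did not overlap, with every PT library below every BM library, for 8 of the 10 genes in WT (7.97% of all tested genes) and for 8 in Bcl2 (32.6%). Over both genotypes, the 6 PT libraries lay below the 6 BM libraries for 7 of the 10 genes, against 4.46% of all tested genes. Summed, the 10 genes took 2.31 to 7.01% of all TPM in BM and 0.157 to 0.384% in PT, and 2.68 to 8.47% and 0.371 to 0.549% without the genes with a long run of A or T. In bulk RNA, fewer cells that express a gene and less RNA of it in each cell cannot be told apart.

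**Figure D1:**
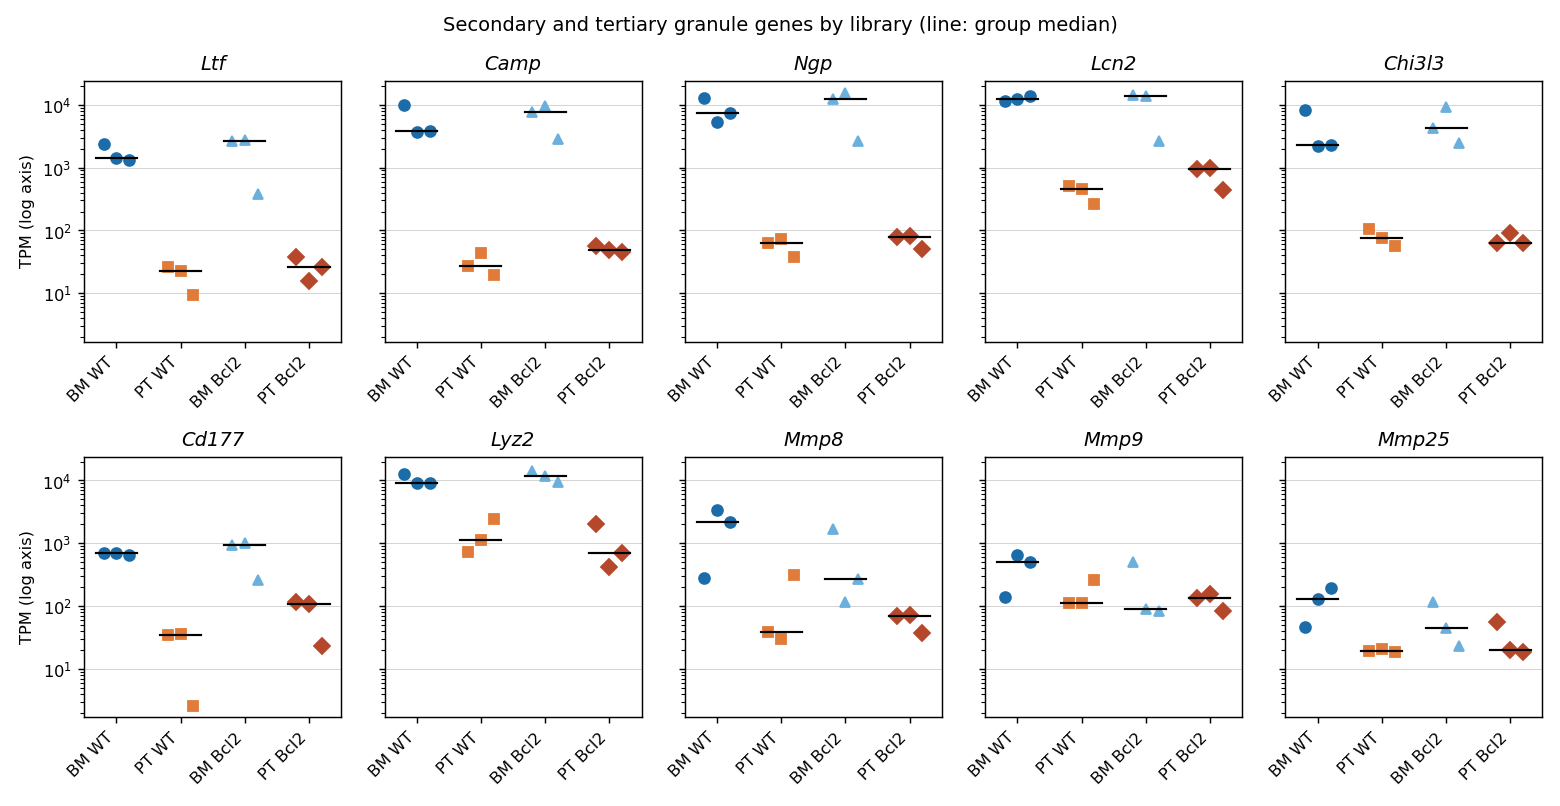
TPM (log axis) of each granule gene in the 12 libraries, in 4 groups of 3, with a line at each group's median. *Ltf*, *Camp*, *Ngp*, *Lcn2*, *Chi3l3*, *Cd177* and *Lyz2* lie lower in all 6 PT libraries than in all 6 BM libraries, and *Mmp8*, *Mmp9* and *Mmp25* have PT libraries that overlap BM libraries.

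Among the antimicrobial proteins of the secondary granule, *Camp* encodes cathelicidin, the precursor of a peptide that lyses bacteria. It measured 9783, 3723 and 3844 TPM in BM WT libraries 4, 5 and 6 and 27.5, 43.5 and 19.3 TPM in PT WT libraries 10, 11 and 12. In Bcl2 mice it measured 7805, 9390.3 and 2844 TPM in BM libraries 1, 2 and 3 and 56.4, 48.1 and 44.7 TPM in PT libraries 7, 8 and 9. Every BM library was thus far above every PT library. *Camp* was 176-fold lower in PT of WT mice (log2 fold change of TPM + 1 of -7.46, SE 0.55, limma adjusted p = 1.13e-05) and 117-fold lower in Bcl2 (-6.88, SE 0.55, adjusted p = 1.74e-05). By mean TPM it ranked 13th of all genes of the table in BM WT and 2742nd in PT WT.

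*Ngp* encodes neutrophilic granule protein, a relative of the cathelicidins. It measured 13052, 5299.9 and 7373 TPM in BM WT and 62.7, 72.7 and 38.4 TPM in PT WT. BM Bcl2 libraries had 12440.1, 15458 and 2630.5 TPM, and in PT Bcl2 78.9, 80.9 and 50.2 TPM. The sites were again far apart, and library 3 was the lowest of the BM libraries. *Ngp* was 140.3-fold lower in PT of WT mice (log2 fold change -7.13, SE 0.62, limma adjusted p = 4.7e-05) and 115-fold lower in Bcl2 (-6.84, SE 0.62, adjusted p = 5.5e-05).

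*Ltf* encodes lactoferrin, which binds iron and is the classical marker of secondary granules. It measured 2378, 1430.1 and 1344 TPM in BM WT and 26.3, 22.6 and 9.57 TPM in PT WT. The BM Bcl2 levels were 2663, 2719 and 376 TPM, and in PT Bcl2 37.7, 15.8 and 25.8 TPM. Even the lowest BM value, that of library 3, was above all PT values. *Ltf* was 87.7-fold lower in PT of WT mice (log2 fold change -6.45, SE 0.71, limma adjusted p = 0.00043) and 54.0-fold lower in Bcl2 (-5.76, SE 0.71, adjusted p = 0.000435).

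*Lcn2* (chromosome 2, 32384633 to 32388252) encodes lipocalin 2, which withholds iron from bacteria by binding their siderophores. It was the most abundant of the 10 genes in BM WT by mean TPM, with 11337, 12509 and 13646.5 TPM, and measured 501, 456 and 267 TPM in PT WT. In BM Bcl2 it measured 14132, 14041 and 2675 TPM, and in PT Bcl2 964, 996 and 438 TPM. The libraries of the 2 sites did not overlap, but a substantial level was left in PT: *Lcn2* ranked 176th of all genes by mean TPM in PT WT and 72nd in PT Bcl2. It was 31.6-fold lower in PT of WT mice (log2 fold change -4.98, SE 0.60, limma adjusted p = 0.000976) and 10.8-fold lower in Bcl2 (-3.43, SE 0.60, adjusted p = 0.00241). With each library centred on its median the change in Bcl2 was -1.84 and was no longer called (adjusted p = 0.117).

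*Chi3l3* (chromosome 3, 106147554 to 106167564) encodes a chitinase-like protein without chitinase activity. It measured 8189.9, 2241 and 2293 TPM in BM WT and 107, 75.5 and 57.0 TPM in PT WT. BM Bcl2 libraries had 4319, 9249 and 2508 TPM, and in PT Bcl2 62.7, 92.2 and 63.3 TPM. The level was 44.4-fold lower in PT of WT mice (log2 fold change -5.47, SE 0.59, limma adjusted p = 0.00043) and 64.0-fold lower in Bcl2 (-6.001, SE 0.59, adjusted p = 8.72e-05). Of 9 paralogs of the 10 genes, 6 were tested. Called lower were 1 in WT and 2 in Bcl2, where 1.22% and 19.1% of all tested genes were. Among the paralogs, the near-identical neighbour *Chi3l4* of *Chi3l3* reached at most 9.14 TPM in any library. How the counting split reads between *Chi3l3* and *Chi3l4* is unknown.

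*Cd177* (chromosome 7, 24743983 to 24760311) encodes a surface and granule membrane protein of neutrophils. It measured 704, 705 and 642 TPM in BM WT, a narrow range, and 34.7, 35.6 and 2.62 TPM in PT WT. The BM Bcl2 levels were 953, 1019 and 262 TPM, and in PT Bcl2 115, 107 and 23.5 TPM. Library 12 was the lowest of all 12 libraries for *Cd177*, and library 9 was the lowest of PT Bcl2. The gene was 40.7-fold lower in PT of WT mice (log2 fold change -5.35, SE 0.86, limma adjusted p = 0.00524), and this call was kept under all 21 alternatives. In Bcl2 it was 9.40-fold lower (-3.23, SE 0.86, adjusted p = 0.0181). That call was lost under all 4 other scalings (adjusted p = 0.0527 to 0.285), without library 2 (adjusted p = 0.0668) and without library 9 (adjusted p = 0.0637). The other 6 calls in Bcl2 were kept without library 9, when 16.4% of all tested genes were called lower.

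*Lyz2* (chromosome 10, 117277331 to 117282321) encodes the lysozyme of myeloid cells, which cleaves bacterial cell walls. It measured 12571, 8952 and 9254 TPM in BM WT and 737, 1110.2 and 2397 TPM in PT WT. In BM Bcl2 it measured 14166.5, 11843 and 9300.05 TPM, and in PT Bcl2 2065, 416 and 705 TPM. It was the most abundant of the 10 genes in both PT groups by mean TPM, ranking 38th of all genes in PT WT and 47th in PT Bcl2. *Lyz2* was 8.09-fold lower in PT of WT mice (log2 fold change -3.02, SE 0.57, limma adjusted p = 0.0118) and 13.7-fold lower in Bcl2 (-3.77, SE 0.57, adjusted p = 0.00123). The call in WT was lost without library 4 (adjusted p = 0.0575) and without library 10 (adjusted p = 0.072). The neighbouring lysozyme gene *Lyz1* was at 17.3 TPM or less in 11 libraries and at 239 TPM in library 12, the PT WT library with the most *Lyz2*. Reads of these near-identical genes may have been shared between them, which was not tested.

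The metalloproteinases gave another picture, and none of the 3 was called in either genotype. *Mmp8* (chromosome 9, 7558456 to 7568485) encodes neutrophil collagenase of the secondary granule. It measured 279, 3403 and 2224 TPM in BM WT and 38.1, 29.6 and 317 TPM in PT WT, so that library 12 in PT lay above library 4 in BM. BM Bcl2 libraries had 1721, 118 and 273 TPM, and in PT Bcl2 68.6, 72.3 and 37.7 TPM, without overlap. The log2 fold change was -4.15 in WT (95% confidence interval -6.45 to -1.85, limma adjusted p = 0.0536) and -2.72 in Bcl2 (-5.02 to -0.42, adjusted p = 0.0833). In WT the gene was called under 6 of 21 alternatives, among them without library 4 (log2 fold change -5.25, adjusted p = 0.0348) and without library 12 (-5.21, adjusted p = 0.0299).

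*Mmp9* (chromosome 2, 164940780 to 164955850) encodes gelatinase B, the protein for which tertiary granules are named. It measured 139, 662 and 497 TPM in BM WT and 112, 112 and 256 TPM in PT WT. The BM Bcl2 levels were 496, 89.7 and 84.6 TPM, and in PT Bcl2 136, 155 and 85.0 TPM. The groups overlapped in both genotypes. The log2 fold change was -1.27 in WT (95% confidence interval -2.83 to 0.29, limma adjusted p = 0.407) and -0.36 in Bcl2 (-1.91 to 1.198, adjusted p = 0.748), and the estimate in Bcl2 changed sign under 3 other scalings and without library 1.

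*Mmp25* (chromosome 17, 23628311 to 23645277) encodes leukolysin, a metalloproteinase anchored to the membrane. It measured 46.8, 131 and 195 TPM in BM WT and 19.3, 20.4 and 18.95 TPM in PT WT, without overlap and with PT libraries close together. In BM Bcl2 it measured 115, 44.2 and 23.1 TPM, and in PT Bcl2 55.2, 20.2 and 18.8 TPM. The log2 fold change was -2.38 in WT (95% confidence interval -3.88 to -0.89, limma adjusted p = 0.0859) and -0.80 in Bcl2 (-2.30 to 0.69, adjusted p = 0.426), where centring of each library turned the estimate to 0.79.

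**Figure D2:**
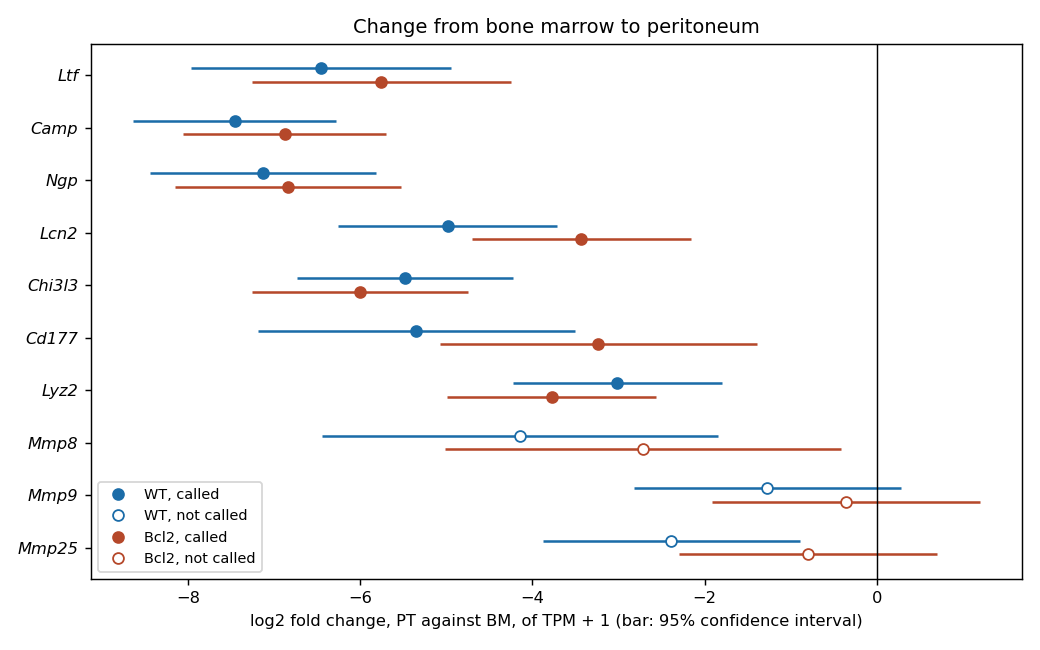
Log2 fold change of TPM + 1 from BM to PT for each granule gene in WT and in Bcl2, with 95% confidence intervals from limma and filled points for called genes. *Camp* lies lowest in both genotypes, at -7.46 and -6.88, and the intervals of *Mmp9* cross 0 in both.

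The 10 genes also differed in how they varied within the marrow. Within BM WT, library 4 had the highest *Camp*, *Ngp*, *Ltf*, *Chi3l3* and *Lyz2* and the lowest *Mmp8*, *Mmp9*, *Mmp25* and *Lcn2*. BM Bcl2 showed part of this opposition in library 2. That library had the highest *Camp*, *Ngp*, *Ltf*, *Chi3l3* and *Cd177* of its group and the lowest *Mmp8*. Its *Lyz2*, *Lcn2*, *Mmp9* and *Mmp25* lay between those of libraries 1 and 3. Library 3 did not show the opposition. It had the lowest *Camp*, *Ngp*, *Ltf*, *Lcn2*, *Chi3l3*, *Cd177* and *Lyz2* of its group and also the lowest *Mmp9* and *Mmp25*. The highest library was 12.2-fold above the lowest for *Mmp8* in BM WT, and 1.10-fold for *Cd177*. In BM Bcl2 the spread was 14.6-fold for *Mmp8* and 1.52-fold for *Lyz2*. Over all 6 BM libraries, libraries 1, 5 and 6 had 1721 to 3403 TPM of *Mmp8*, 496 to 662 TPM of *Mmp9* and 115 to 195 TPM of *Mmp25*. Libraries 2, 3 and 4 had 118 to 279 TPM, 84.6 to 139 TPM and 23.1 to 46.8 TPM of the same genes. Genes of dividing cells and of primary granules, which are expressed at earlier stages of development, were ordered the other way: 5 cell cycle genes summed to 180 to 376 TPM in libraries 1, 5 and 6 and to 754 to 1329 TPM in libraries 2, 3 and 4, and 6 primary granule genes to 472 to 1673 TPM and to 3301 to 8577 TPM. The neutrophil receptor *Cxcr2*, expressed late, was at 1493 to 1864 TPM in the first 3 libraries and at 212 to 399 TPM in the others. Both sets of libraries hold both genotypes, they were picked by their values, and the part of maturity in these differences was not tested.

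**Figure D3:**
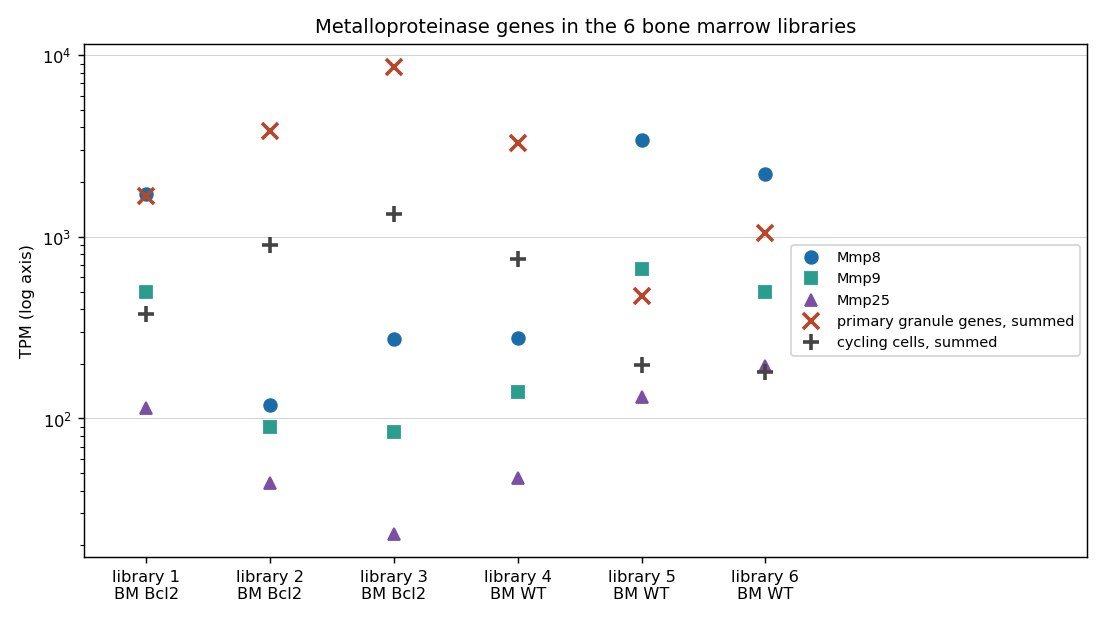
TPM (log axis) of *Mmp8*, *Mmp9* and *Mmp25*, and summed TPM of 6 primary granule genes and 5 cell cycle genes, in each of the 6 BM libraries. Libraries 1, 5 and 6 are higher in the 3 metalloproteinase genes and lower in both sums than libraries 2, 3 and 4.

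Ratios of 2 genes within a library do not change with the scaling between libraries. Relative to *Lyz2*, every PT library was below every BM library for *Camp*, *Ngp*, *Ltf* and *Chi3l3*, 4 of the other 9 granule genes, where 0.297% of all tested genes were. The *Camp* ratio was 0.306 to 0.793 in BM and 0.00807 to 0.116 in PT. The *Ngp* ratio was 0.283 to 1.31 in BM and 0.016 to 0.194 in PT. For *Ltf* the ranges were 0.0405 to 0.23 and 0.00399 to 0.0379, and for *Chi3l3* 0.248 to 0.781 and 0.0238 to 0.222, in each case close at their nearest ends. *Lcn2* and *Cd177* overlapped between the sites relative to *Lyz2*. The *Mmp9* ratio had a median of 0.0231 in BM and 0.114 in PT, and that of *Mmp25* had medians of 0.00591 and 0.0264. Both thus stood higher beside *Lyz2* in PT, with overlapping ranges. *Lyz2* itself had log2 fold changes of -3.02 in WT and -3.77 in Bcl2, against medians of 0.22 and -1.02 over all tested genes. A gene at the median thus also rose beside *Lyz2*, and the share of all genes with a higher ratio was not counted.

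**Figure D4:**
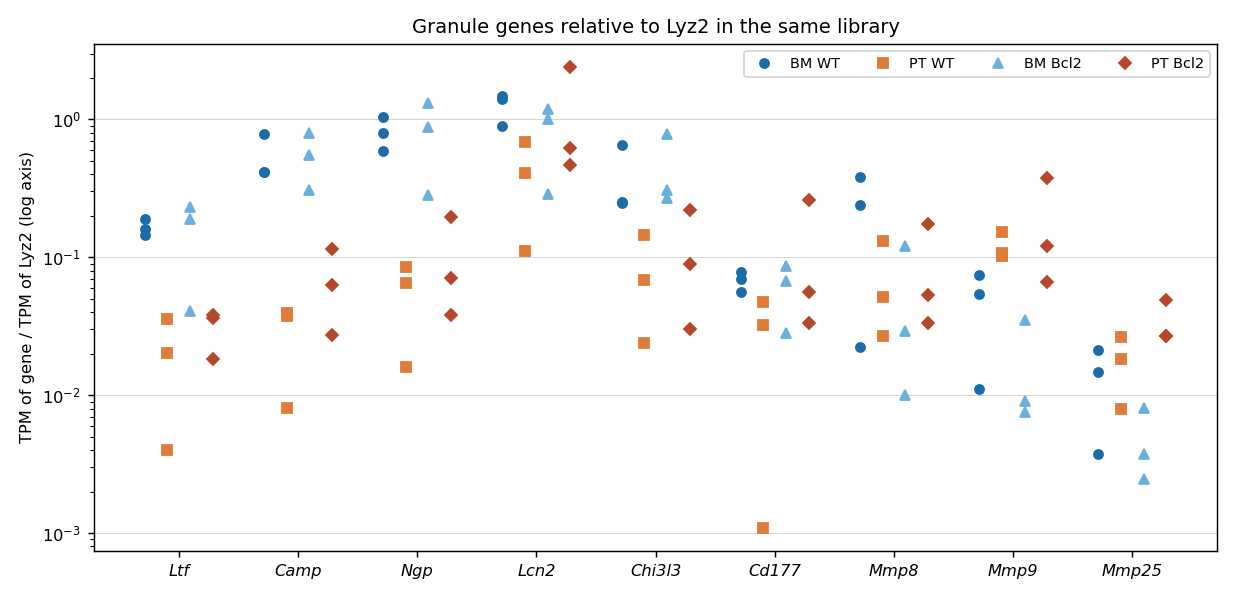
TPM of each granule gene divided by the TPM of *Lyz2* in the same library (log axis), by group. The ratios of *Ltf*, *Camp*, *Ngp* and *Chi3l3* are lower in all PT libraries, and those of *Mmp9* have a median of 0.0231 in BM and 0.114 in PT.

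The next comparison asked whether the change between sites depended on the transgene. None of the 10 genes was called for the interaction of site and genotype in limma, where 0.0149% of all tested genes were, and none reached an unadjusted p under 0.05, as did 2279 of all tested genes. The median interaction over all tested genes was -1.18, and relative to it all 10 granule genes were positive, from 0.42 (*Lyz2*) to 3.30 (*Cd177*). With the libraries centred, 6 of the 10 genes (*Lcn2*, *Mmp25*, *Cd177*, *Camp*, *Mmp9* and *Ltf*) had an unadjusted p under 0.05, as did 9.18% of all tested genes, and none was called (limma adjusted p = 0.526 to 0.692). The other scalings gave fewer. Quantile normalization gave 1 (6.27% of all tested genes), and leaving out the 100 other genes of highest TPM gave 2 (10.6%). Leaving out genes with a long run of A or T gave 0 (13.3%). Without library 9, *Cd177* and *Lcn2* had an unadjusted p under 0.05, as did 18.2% of all. The 2 largest interaction estimates were those of *Cd177* (2.11 on the log2 scale, 95% confidence interval -0.49 to 4.72, limma adjusted p = 0.373) and *Mmp25* (1.58, -0.54 to 3.70, adjusted p = 0.406), both a smaller difference between sites in Bcl2. The *Cd177* estimate was 1.01 without library 12, 2.85 without library 9 and 3.92 with the libraries centred, and was called in none of these. *Lcn2* had the smallest unadjusted p (1.55, -0.25 to 3.35, limma adjusted p = 0.351). The intervals were wide: for *Mmp8* the interval ran from -1.82 to 4.68, and for *Camp* from -1.08 to 2.25.

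Within a site, Bcl2 and WT neutrophils were compared directly. In BM none of the 10 genes was called (0.0223% of all tested genes), and none reached an unadjusted p under 0.05, as did 991 of all tested genes. Over all tested genes the median log2 fold change was 0.49. Without library 1, 3 of the 10 genes reached an unadjusted p under 0.05 (10.6% of all tested genes). Without library 4, 3 did (14.2%), and 1 did with the libraries centred (5.31%). Of the 10 genes, the 3 lowest estimates in the main fit were those of *Mmp8* (log2 fold change -1.75, limma adjusted p = 0.722), *Mmp9* (-1.19, adjusted p = 0.721) and *Mmp25* (-1.10, adjusted p = 0.723), and the libraries of the 2 genotypes overlapped for each. In PT none was called either (0.0297% of all tested genes), and the median log2 fold change over all tested genes was -0.67. With the libraries centred, 3 of the 10 genes reached an unadjusted p under 0.05 (7.83% of all tested genes). In the main fit 1 of the 10 did, as did 1709 of all tested genes. It was *Cd177* (log2 fold change 2.01, 95% confidence interval 0.17 to 3.85, limma adjusted p = 0.355). That estimate rested in part on library 12: without it, it was 0.90, and without library 9, whose *Bcl2* level was that of WT, it was 2.74 (adjusted p = 0.209). *Camp* was the 1 granule gene whose PT Bcl2 libraries all lay above those of PT WT, as did 0.587% of all tested genes, with a log2 fold change of 0.77 (95% confidence interval -0.40 to 1.95, limma adjusted p = 0.56). The separation was narrow, with 44.7 TPM in library 9 (PT Bcl2) and 43.5 TPM in library 11 (PT WT) as the nearest values. The order of the groups was therefore by site for the 7 called genes, and no difference between neighbouring groups of the same site passed the test.

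Other genes of neutrophil granules were not all lower in PT. Of 16 tested genes among 17 further secondary and tertiary granule genes, 4 were called lower in WT and none higher, and in Bcl2 3 were called lower and 1 higher, with median log2 fold changes of -0.48 and -1.04. Over all tested genes 1.22% in WT and 19.1% in Bcl2 were called lower, and the count and the median of these genes in Bcl2 were near those of all genes. Called lower in both genotypes were *Orm1*, an acute-phase protein (-3.66 in WT and -6.73 in Bcl2), *Cybb*, the large subunit of the NADPH oxidase (-2.89 and -4.47), and *Pglyrp1*, which binds bacterial peptidoglycan (-2.83 and -1.66). *Hp*, haptoglobin, was the fourth in WT (-2.22, adjusted p = 0.0367). *Slc11a1*, a metal transporter of granule membranes, was the 1 called higher in Bcl2 (2.27, limma adjusted p = 0.0424). *Itgam*, the integrin chain CD11b, which the methods use as a marker of both neutrophils and macrophages, had estimates of 0.73 and 1.10. It was not called. *Hp* and *Slc11a1* were named after their values were seen, and *Itgam* because the methods use it as a marker.

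The primary granule genes, made at an earlier stage, were also read. Of 6, 4 were called lower in WT and all 6 in Bcl2, where 1.22% and 19.1% of all tested genes were, with median log2 fold changes of -4.45 and -6.11. *Mpo*, myeloperoxidase, changed by -6.69 in WT and -7.46 in Bcl2 (limma adjusted p = 0.000333 and 5.8e-05). *Elane*, neutrophil elastase, changed by -5.98 and -7.91, *Ms4a3* by -4.62 and -5.92 and *Ctsg*, cathepsin G, by -4.25 and -6.30. Of 5 cell cycle genes, 2 were called lower in WT and 5 in Bcl2, among them *Mki67* (-3.05 and -4.48) and *Ccnb1* (-4.10 and -4.52). Their sum was 180 to 1329 TPM in BM and 20.05 to 72.2 TPM in PT, so their summed level was lower in PT together with the granule genes, and its part in the result was not tested.

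**Figure D5:**
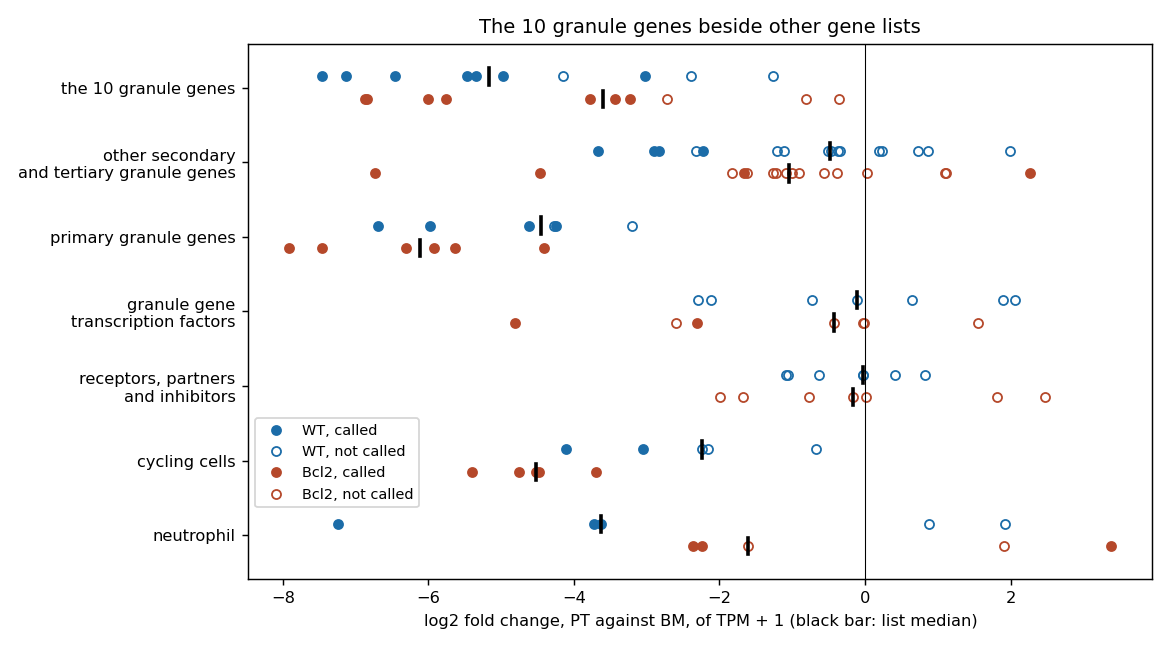
Log2 fold change of TPM + 1 from BM to PT for the 10 granule genes and for 6 other lists, in WT and Bcl2, with filled points for called genes and a black bar at each list's median. The medians are -5.16 and -3.60 for the 10 granule genes, -4.45 and -6.11 for primary granule genes, and -0.12 and -0.43 for granule gene transcription factors.

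Of 7 transcription factor genes known to act on granule genes, none was called in WT and 2 were called lower in Bcl2. Over all tested genes, 1.22% were called lower in WT and 19.1% in Bcl2. *Spi1*, which encodes PU.1, was at 278 to 530.1 TPM in all 12 libraries, with log2 fold changes of -0.12 in WT and -0.01 in Bcl2. *Cebpb*, the C/EBP of emergency granulopoiesis, had positive estimates (2.07 and 1.55, limma adjusted p = 0.0856 and 0.0798). *Cebpe*, required for secondary granules, was at 3.40 to 73.9 TPM in BM and 0 to 11.6 TPM in PT, with -2.29 in WT (adjusted p = 0.29) and a called -4.81 in Bcl2 (adjusted p = 0.00699). *Cebpd* had -0.73 and -0.02. *Cebpa* was the other gene called lower in Bcl2 (-2.31, adjusted p = 0.0357), and it had a positive estimate in WT (1.89, adjusted p = 0.195), with an interaction of -4.20 that was not called (adjusted p = 0.192); it was named after its values were seen. Among 8 receptors, partners and inhibitors of the granule proteins, 7 were tested and none was called in either genotype. *Fpr2*, a receptor of the cathelicidin peptide, had -1.06 and -0.77, and *Fpr1* had -1.08 and 0.02. *Timp2* and *Timp3*, inhibitors of metalloproteinases, had -0.63 and 0.82 in WT and -0.17 and 1.81 in Bcl2.

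Markers of other cells were read beside these values, since a sort can let them through. The neutrophil calcium-binding genes *S100a8* and *S100a9* were themselves called lower in PT in both genotypes (-3.62 and -3.73 in WT, -2.37 and -2.24 in Bcl2), and *Ly6g* was called lower in WT (-7.25) and not in Bcl2 (-1.60), with an interaction that was not called (limma adjusted p = 0.212). The other 2 of the 5 neutrophil genes had higher estimates in PT: *Csf3r*, the receptor of G-CSF, was called higher in Bcl2 (3.38, limma adjusted p = 0.0067) and had 1.93 in WT (adjusted p = 0.189), and *Cxcr2* had 0.88 and 1.91 and was not called. Of 8 macrophage genes 7 were tested and none was called, *Cd68* having estimates of 1.32 and 1.59, and they summed to 46.0 to 220 TPM in BM and 150.0 to 714 TPM in PT. Those of B cells summed to 8.70 to 75.9 TPM in BM and 34.4 to 207 TPM in PT, those of mast cells to 2.88 to 9.94 and 1.43 to 633 TPM, and those of T cells to 30.9 to 61.0 and 5.64 to 174 TPM. Of 3 eosinophil genes, *Epx* was at 0 throughout and *Prg2* at 0 in 11 libraries. Of the 4 mast cell genes, *Cma1*, a mast cell chymase, was called higher in PT in WT (4.19, limma adjusted p = 0.0246). The 4 erythroid genes summed to 25.4 to 964 TPM in BM and 0 to 9.26 TPM in PT. Of 3 tested, 1 was called lower in WT (*Hbb-b1*, -3.87) and 3 in Bcl2, where 1.22% and 19.1% of all tested genes were. *Csf3r*, *Cxcr2*, *Cd68*, *Csf1r*, *Cma1* and *Hbb-b1* were named after their values were seen. What part these cells have in the granule genes' levels was not tested.

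Of all 13456 tested genes, those outside the list nearest to its mean pattern over the 12 libraries included *Ifitm6*, *Adpgk*, *Apmap* and *Padi4*. The measure was the root mean square distance of log2(TPM + 1), centred on each gene's own mean, and it came to 0.544, 0.581, 0.689 and 0.699. *Lcn2* was nearest of the 10 genes at 0.376, and *Mmp9* farthest at 1.94, rank 2570 of the tested genes. Each of the 10 genes is itself part of the mean pattern, which lessens its distance, unlike the genes outside the list. *Ifitm6*, an interferon-induced transmembrane gene, was at 1781 to 15484 TPM in BM and 355 to 906 TPM in PT. *Padi4*, whose product citrullinates histones, was at 11.3 to 115 TPM in BM and 0.236 to 4.24 TPM in PT. All distances are over the same 12 libraries of 2 sites, and none was tested.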

How the data were processed

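RNA of FACS-sorted cells had been collected in Trizol, amplified with the NuGEN Ovation kit, made into libraries with NEBNext Ultra and sequenced on an Illumina HiSeq by the authors. The deposited values are log2(TPM + 1) per gene and library, made by the authors with AltAnalyze at its default settings. Its version and the genome build are not given in the sources used here. TPM was recovered from the deposited log2 values by reversing the logarithm. The deposited comparison columns (averages, fold changes, p-values, correlation scores and lineage z-scores) were not used, nor were 2 per-sample columns of a library whose sample is not stated. TPM keeps no read totals, so the depth of the libraries is unknown.

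Groups were taken from the labels. The 13456 genes that reached 1 TPM in 3 or more of the 12 libraries were tested on log2(TPM + 1) with limma 3.58.1 in R 4.3.3, with 4 group means, 8 residual degrees of freedom, a variance trend and Benjamini-Hochberg adjustment. A call needed an adjusted p below 0.05 with a 2-fold difference or more, except for the interaction, where the adjusted p sufficed. By the methods both sites were sampled in each mouse, but no column names the mouse, so all libraries were fitted as independent and p-values measure the spread between these libraries, which may be technical. The procedure was tested on simulated data for PT against BM in WT with 13456 genes, of which 200 were changed: 68 were called in the right direction, 58 of 100 changed by 4 on the log2 scale were recovered, and 11 other calls were made.

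The 10 genes and all lists were chosen with earlier results of these data known. From each other list at most 4 genes were named, those of largest average change among genes called in WT and in Bcl2 or, where fewer than 2 were, those of highest mean TPM. Genes named outside this rule are given as such or serve as a check of a library. Of the genes whose pattern was nearest to that of the 10, 1 is not reported here. Coordinates are from GENCODE M21 (GRCm38) by Ensembl ID and promoters from RefSeq. Alternatives were other scalings, filters, pseudocounts, thresholds and variance models, and leaving out each library.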

Additional observations from a re-analysis of the deposited data

How the results depend on the processing

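The number of the 10 genes called was between 6 and 8 in WT and between 5 and 7 in Bcl2 in PT against BM, and 0 for the interaction and both genotype comparisons, over all 113 values from the alternatives. The share of all tested genes called lower did not stay the same under these settings. In Bcl2 it was 19.1% in the main fit, and smaller with the libraries centred and without library 9, as given above. Of 604 alternative values of single fold changes, 584 kept their direction and side of the threshold, 9 lost the call, 6 gained it and 5 changed sign. The sign changes were all in Bcl2: *Mmp9* came to 1.23 with each library centred on its median, 0.30 without the 100 other genes of highest TPM, 0.39 without genes with a homopolymer run and 0.48 without library 1 (range -0.79 to 0.48 over the fits that leave out 1 library), and *Mmp25* came to 0.79 after centring. The cause was not tested. The calls lost were those of *Cd177* (6) and *Lcn2* (1) in Bcl2 and of *Lyz2* (2) in WT, and the calls gained were all of *Mmp8* in WT. Where a library was left out, the group of 2 libraries shared the spread of all groups. No paired analysis was possible because no number in the column names ties a library of one group to one of another. The depth is unknown, so how far it limits the values of low genes cannot be given.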
